A study of Homo sapiens with 8 samples.

Results

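The genes examined were the orphan and adhesion G protein-coupled receptor (GPCR) genes of CFPAC-1, a long-established line of human pancreatic duct cancer cells. Members were the rows of the deposited count table whose symbol was GPR followed by digits only, GPRC5A to GPRC5D, or ADGR followed by a letter and digits. This rule took 107 of the 58870 genes, with 74 of the GPR form, 4 of the GPRC5 form and 29 adhesion receptor genes. RNA of 8 samples of these cells was sequenced in bulk, 4 carrying an empty vector and 4 an ADRA2A transgene. All 8 were kept for 72 hours in IMDM with 10% fetal bovine serum and 1% penicillin and streptomycin, and no drug was given. ADRA2A encodes the alpha-2A adrenergic receptor, itself a GPCR, which couples mainly to Gi proteins and lowers cyclic AMP. The labels give neither the promoter of the vector nor whether the cells were a pool or a clone. They also do not say whether the samples of a group were separate cultures, so the p-values measure the spread between these samples, which may be technical.

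GPCRs cross the membrane in 7 helices and pass the presence of an outside ligand to G proteins and arrestins. An orphan receptor is one whose natural ligand is unknown or unsettled, and many of the GPR symbols date from before a ligand was proposed. Adhesion receptors carry long outer domains that bind matrix or neighbouring cells, and most can cut themselves at a site close to the membrane, which exposes a tethered peptide that activates the receptor. In gland epithelia several of them act in cell contact and secretion, while many class A orphans belong to neurons or immune cells.

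The transgene was read first. ADRA2A had 0 counts in each of the 4 empty-vector libraries and 112, 142, 154 and 172 counts in ADRA2A replicates 1 to 4. Library totals lay between 14427040 and 17528910 counts. Of 9 ductal epithelial marker genes 8 were tested, and their summed level lay between 12041 and 13093 CPM (counts per 1000000 counts, after TMM scaling) in every library, carried by keratins such as KRT8. Single markers still differed, since 7 of the 8 passed, 3 higher and 4 lower, with log2 fold changes from -0.43 for KRT7 to 0.79 for MUC1. The duct marker CFTR was near 0, at 0.708 ± 0.309 CPM in the empty-vector and 0.431 ± 0.122 CPM in the ADRA2A libraries (SD, n = 4 each). The 6 endothelial markers summed to between 2.05 and 3.35 CPM per library, with TEK and CLDN5 at 0, although PECAM1 rose (0.773 to 2.44 CPM) and KDR fell (1.23 to 0.482 CPM). The 8 fibroblast markers summed to between 78.2 and 82.6 CPM in the empty-vector and between 24.0 and 26.4 CPM in the ADRA2A libraries, nearly all of it COL1A1, while none of the 8 was at 0 everywhere. Of the 10 immune markers CD3E, CD3D, MS4A1 and NKG7 were at 0, and the summed level, which lay between 121 and 134 CPM and between 199 and 212 CPM, came mainly from CD68 and LYZ. The part of these markers in the receptor results was not tested.

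Most receptor genes of the rule were silent or nearly so in these cells. No count was seen in any library for 35 of the 107 genes, among them GPR55, GPR84, GPR119, ADGRG2 and ADGRE3. A further 30 had counts too low to test, with at most 18 counts in any library. That left 42 genes that passed edgeR's filter on low counts, which asks for about 10 counts in at least 4 libraries, and these are called expressed here. A mean of at least 1 CPM was reached by 40 genes. The expressed genes were 24 of the 74 GPR genes, 3 of the 4 GPRC5 genes and 15 of the 29 adhesion genes. All of ADGRD and ADGRV1 stayed under the filter, as did ADGRA1 and ADGRA2 of subfamily A. GENCODE annotates 105 of the 107 as protein coding. The exceptions are ADGRF2, which was expressed at a low level, and GPR79, which had no counts, and both are listed as pseudogenes.

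**Figure D1:**
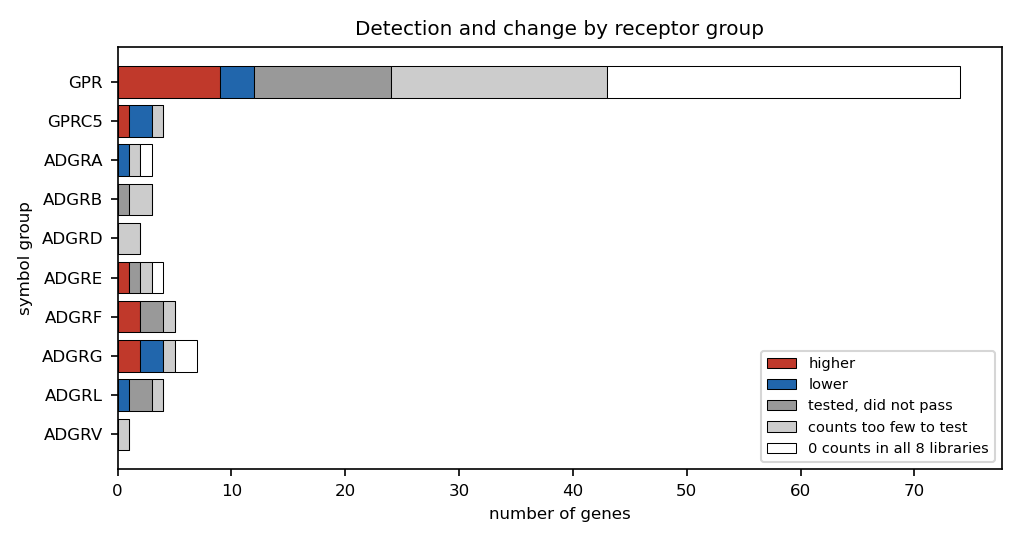
Number of receptor genes (x axis) in each symbol group (y axis), divided into genes that passed with a higher or a lower level in the ADRA2A cells (adjusted p-value under 0.05), tested genes that did not pass, genes with too few counts to test, and genes with 0 counts in all 8 libraries. The GPR group of 74 genes holds 31 of the 35 genes with 0 counts.

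A few genes carried most of the signal. The members together took 1885 ± 30.7 CPM of the empty-vector and 1957 ± 22.2 CPM of the ADRA2A libraries (SD, n = 4 each), and the groups did not overlap (1851 to 1922 CPM and 1932 to 1984 CPM). ADGRF1, GPRC5A and ADGRG6 held 50.1% of that sum of counts in the empty-vector and 51.9% in the ADRA2A cells. Levels were compared between genes as TPM (transcripts per 1000000 transcripts), computed from the counts and the length of each gene's canonical transcript. ADGRF1, known in neurons as a receptor for the lipid amide synaptamide, stood highest at 158 TPM on average, at the 92.6th percentile of all genes tested. GPRC5A, a retinoic acid-inducible receptor, followed at 125 TPM. The order of the leading pair rested on the ADRA2A cells, at 178 ± 7.49 and 112 ± 2.56 TPM, since in the empty-vector cells they stood at 138 ± 5.06 and 139 ± 6.49 TPM (SD, n = 4 each). Next came 3 adhesion receptors, ADGRG6 at 83.0, ADGRE5 at 72.6 and ADGRG1 at 64.1 TPM, with GPRC5C and ADGRA3 further down at 48.8 and 45.7 TPM. The order of this last pair differed between groups, with GPRC5C below ADGRA3 in the empty-vector cells (44.6 ± 3.04 and 51.6 ± 2.17 TPM) and above it in the ADRA2A cells (53.0 ± 2.32 and 39.8 ± 0.393 TPM). The median expressed member had 6.58 TPM against 17.3 TPM for all genes tested, so the typical expressed receptor was a low-abundance transcript.

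**Figure D2:**
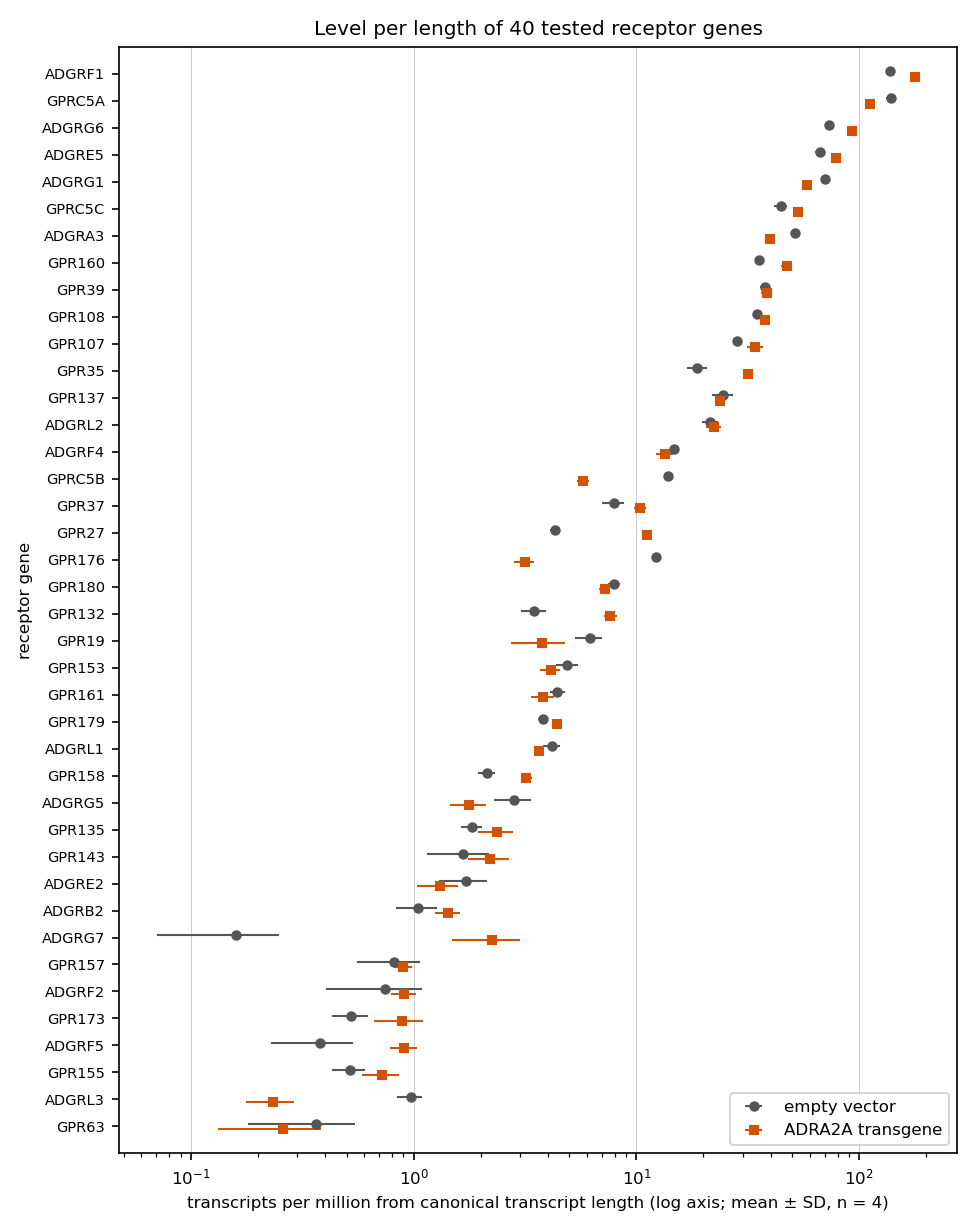
Level per transcript length (x axis, TPM, log axis) of 40 of the 42 tested receptor genes (y axis), as mean ± SD over the 4 libraries of each group, in order of the mean over all 8. ADGRF1 and GPRC5A lie above 100 TPM and GPR63 is lowest, at 0.311 TPM over the 8 libraries.

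The comparison asked which of these receptors differ in RNA level once ADRA2A is overexpressed. Of the 42 tested genes 24 passed edgeR's quasi-likelihood test at 0.05 after Benjamini-Hochberg adjustment, 57.1% of them, where 42.7% of all 14785 genes tested did. Of the 42 tested genes 15 passed with a higher and 9 with a lower level in the ADRA2A cells. Of all 14785 genes tested, 21.6% passed with a higher and 21.1% with a lower level. Among genes that passed, 62.5% of the members and 50.6% of all genes were higher. Passing with a difference of 0.5 or more on the log2 scale held for 12 of the 42, 7 higher and 5 lower. It held for 12.0% of all genes tested. Passing with a difference of 1 or more held for 7 of the 42 and for 4.66% of all genes tested. The median log2 fold change of the tested members was 0.12, against 0.00 for all genes tested. In 25 of the 42 every library of 1 group lay above every library of the other, 59.5%, where 39.2% of all genes did. These 25 are 23 of the 24 that passed, GPR19 being the exception, plus GPR153 and ADGRL1, which did not pass. ADGRG7 passed the filter through the ADRA2A libraries alone, so a difference in it was built into being tested. In bulk RNA, less RNA per cell and fewer cells with a gene cannot be told apart.

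**Figure D3:**
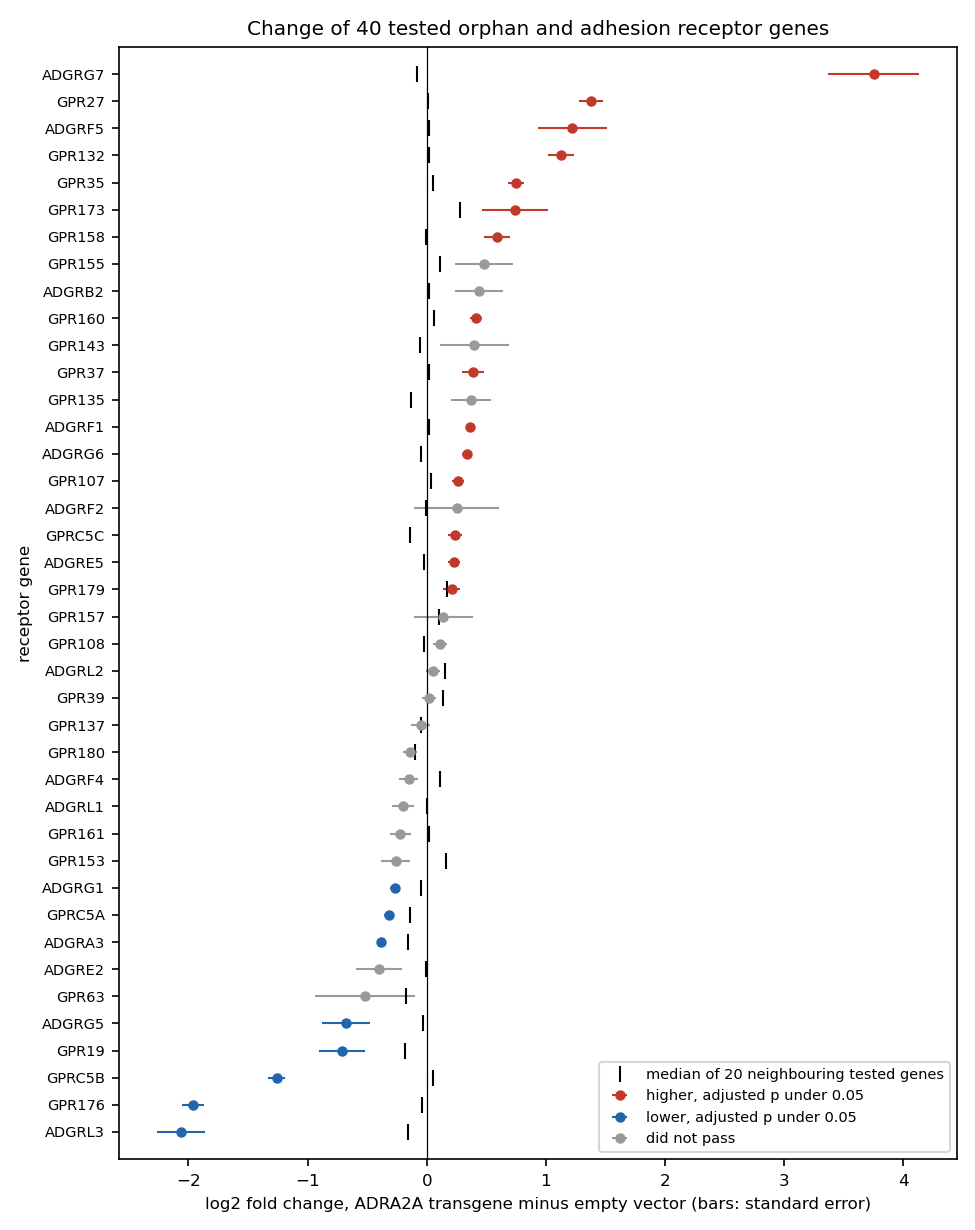
Log2 fold change (x axis, ADRA2A transgene minus empty vector, bars the standard error) of 40 of the 42 tested receptor genes (y axis), coloured by whether the adjusted p-value was under 0.05, with a black tick for the median log2 fold change of the 20 nearest tested genes on the chromosome. The changes run from -2.06 for ADGRL3 to 3.75 for ADGRG7, while the ticks of the genes that passed lie between -0.18 and 0.28.

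Latrophilins are adhesion receptors that bind teneurins and FLRT proteins on facing cells. ADGRL3 (ENSG00000150471.16, chromosome 4, 61200326 to 62078335, plus strand) had 6.73, 5.29, 6.04 and 5.17 CPM in empty-vector replicates 1 to 4 and 1.59, 1.78, 1.09 and 1.14 CPM in ADRA2A replicates 1 to 4. All 4 ADRA2A libraries lay far under the lowest empty-vector one, and the gene fell by 2.06 on the log2 scale, or 4.15-fold (SE 0.20, edgeR adjusted p = 8.32e-08). The other expressed latrophilins did not pass and stood higher per length, ADGRL2 at 21.8 and ADGRL1 at 3.93 TPM against 0.602 TPM for ADGRL3. ADGRL2, at 69.4 ± 4.94 and 71.7 ± 4.83 CPM (SD, n = 4 each), had a log2 fold change of 0.05 ± 0.06 (SE). ADGRL1 went from 14.3 ± 1.10 to 12.5 ± 0.543 CPM (edgeR adjusted p = 0.075), and it passed when empty-vector replicate 2 was left out. ADGRL4, which marks endothelium, had 1 count in all.

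The ADGRG genes moved in both directions, and all 4 that were expressed passed, where 42.7% of all genes tested did. ADGRG7, best known from intestinal epithelium, had 0.293, 0.0679, 0.174 and 0.327 CPM in empty-vector replicates 1 to 4, from 5, 1, 3 and 5 counts. In the ADRA2A cells it had 4.36, 2.18, 2.41 and 3.23 CPM, from 63, 33, 42 and 51 counts. Its lowest ADRA2A library was thus well above the highest empty-vector one, and the level was 14.1-fold higher (log2 fold change 3.75 ± 0.38, SE, edgeR adjusted p = 1.51e-07). That was the widest change of the 42, although ADGRG7 was low in both groups. It passed the filter through the ADRA2A libraries alone, so this p-value is not independent support for a difference. ADGRG6, a receptor for type IV collagen and laminin that is needed for myelination, rose from 218 ± 6.13 to 276 ± 10.6 CPM (SD, n = 4 each), which is 1.27-fold (log2 0.34, SE 0.04, edgeR adjusted p = 3.01e-07).

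ADGRG1 and ADGRG5 lie next to each other on chromosome 16 (57610652 to 57665580 and 57542643 to 57591681, both plus strand) and were both lower. ADGRG1, which binds type III collagen and transglutaminase 2, had 134, 130, 130 and 126 CPM in the empty-vector libraries and 106, 109, 112 and 105 CPM in the ADRA2A libraries. Its groups were clearly apart although the change was small (log2 fold change -0.27 ± 0.04, SE, edgeR adjusted p = 1.23e-05). ADGRG5, otherwise a leukocyte receptor, went from 5.09, 3.87, 4.18 and 3.27 CPM to 2.56, 2.64, 2.0 and 3.10 CPM. The highest ADRA2A library came close to the lowest empty-vector one, and the fall was 1.59-fold (log2 fold change -0.68 ± 0.20, SE, edgeR adjusted p = 0.00946). ADGRG3, the third gene of this locus, had at most 2 counts in a library.

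In subfamily F, 2 of 4 expressed genes rose and none fell. These 4 lie on chromosome 6 between 46852522 and 47722021. ADGRF1, the most abundant receptor per length, had 332, 330, 314 and 334 CPM in the empty-vector libraries and 434, 408, 414 and 425 CPM in the ADRA2A libraries, so every ADRA2A library was higher (log2 fold change 0.36 ± 0.03, SE, edgeR adjusted p = 4.08e-08). ADGRF5, a regulator of surfactant in the lung, rose from 1.29, 0.543, 1.28 and 0.720 CPM to 2.63, 2.18, 1.95 and 2.34 CPM, 2.38-fold (log2 fold change 1.22 ± 0.29, SE, edgeR adjusted p = 0.00189). ADGRF4, at 20.1 ± 0.834 and 18.2 ± 1.80 CPM, and ADGRF2, under 1 CPM on average in both groups, overlap on the same strand and did not pass, although ADGRF4 did without ADRA2A replicate 2 (adjusted p = 0.0366). Their groups overlapped, so the 4 neighbours did not shift as a block.

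Among the remaining adhesion genes ADGRE5 and ADGRA3 passed. ADGRE5, the leukocyte and tumour antigen CD97, had 88.4, 94.5, 99.9 and 89.1 CPM and rose to 104, 111, 115 and 106 CPM (log2 fold change 0.23 ± 0.05, SE, edgeR adjusted p = 5.85e-04). ADGRA3, an orphan relative of the WNT7 co-receptor ADGRA2, fell from 103 ± 4.42 to 79.1 ± 1.49 CPM, with a log2 difference of -0.38 (SE 0.04, edgeR adjusted p = 4.53e-07). ADGRE2 went from 5.08 ± 1.18 to 3.86 ± 0.814 CPM and did not pass (adjusted p = 0.0944, range over the alternatives 0.0347 to 0.315), except without empty-vector replicate 3 or ADRA2A replicate 2. Part of its outer region is nearly identical to that of ADGRE5, so the division of reads of that part between these genes is uncertain. ADGRB2, a brain angiogenesis inhibitor gene, had a log2 fold change of 0.44 ± 0.20 (SE) and did not pass either. The CELSR genes are adhesion receptors too but carry other symbols and fall outside the rule, and of these CELSR1 and CELSR2 rose (log2 fold changes 0.18 and 0.53) while CELSR3 had 0.03.

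The GPRC5 receptors are class C orphans that retinoic acid can induce. GPRC5B (ENSG00000167191.12, chromosome 16, 19856691 to 19886167, minus strand) had 29.9, 31.2, 32.7 and 30 CPM in the empty-vector and 13.3, 13.3, 13.5 and 11.5 CPM in the ADRA2A libraries. No library of 1 group came near the other, and the fall was 2.40-fold (log2 fold change -1.26 ± 0.07, SE, edgeR adjusted p = 4.38e-11). GPRC5A, at 400, 425, 380 and 391 CPM, fell to 321, 320, 317 and 323 CPM (log2 fold change -0.32 ± 0.04, SE, edgeR adjusted p = 5.70e-07). The ADRA2A libraries were much tighter than the empty-vector ones, with an SD of 2.65 against 19.6 CPM. GPRC5C went the other way, from 35.3 ± 2.44 to 41.7 ± 1.23 CPM (log2 fold change 0.24 ± 0.06, SE, edgeR adjusted p = 0.00197). GPRC5D, a plasma cell antigen, had 3 counts in 1 library and none elsewhere.

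Receptors for lipids, metabolites and protons were mostly silent, and GPR35 and GPR132 both rose. GPR35, a gut receptor for which kynurenic acid has been proposed as a ligand, had 27.5, 30.8, 24.2 and 25.6 CPM in the empty-vector and 44.8, 44.3, 44.5 and 48.0 CPM in the ADRA2A libraries. The groups were well apart (log2 fold change 0.75 ± 0.07, SE, edgeR adjusted p = 2.03e-08). GPR132 (ENSG00000183484.12, chromosome 14, 105049395 to 105065445, minus strand), a receptor of macrophages for oxidised fatty acids and protons, rose from 5.21, 6.45, 4.82 and 5.76 CPM to 11.6, 13.5, 11.8 and 11.7 CPM. That is a 2.18-fold rise with no overlap (log2 fold change 1.13 ± 0.11, SE, edgeR adjusted p = 1.06e-07). The proton sensors GPR4 and GPR65 had at most 2 counts in a library. GPR39, a zinc receptor, was well expressed and had a log2 fold change of 0.02 ± 0.06 (SE). LYPD1 overlaps GPR39 by 3297 bases on the opposite strand and fell from 114 ± 7.06 to 66.7 ± 2.41 CPM (log2 fold change -0.78). As the use of strand is not stated, reads of that stretch cannot be assigned.

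Of 8 receptors with GPR symbols listed as raising cyclic AMP through Gs, opposite to ADRA2A, 1 was expressed. Adhesion receptors and proton sensors were grouped apart from these 8 whatever their coupling, so this is not a count of all Gs-coupled members. GPR161, which sits in the primary cilium and restrains hedgehog signalling, went from 15.1 ± 1.06 to 13.0 ± 1.43 CPM (SD, n = 4 each) with overlapping groups (log2 fold change -0.22 ± 0.09, SE, edgeR adjusted p = 0.0596). The gene passed with upper quartile scaling and without empty-vector replicate 2 or ADRA2A replicate 1. GPR3 had between 5 and 13 counts in a library and was not tested. GPR6, GPR12, GPR26 and GPR119 were at 0.

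GPR27 and GPR173 belong to the SREB family, brain receptors whose sequence is strongly conserved. GPR27 (ENSG00000170837.2, chromosome 3, 71753855 to 71756496, plus strand, 1 exon) had 4.98, 4.75, 4.88 and 5.17 CPM in the empty-vector and 12.0, 13.7, 13.2 and 12.5 CPM in the ADRA2A libraries. Both groups were tight and far apart, a 2.60-fold rise (log2 fold change 1.38 ± 0.10, SE, edgeR adjusted p = 1.75e-09). EIF4E3 overlaps GPR27 by 919 bases on the opposite strand and also rose, from 7.34 ± 0.611 to 12.8 ± 1.96 CPM (log2 fold change 0.81). Because the use of strand is not stated, reads of the shared stretch cannot be assigned. GPR173 went from 1.10 ± 0.198 to 1.84 ± 0.457 CPM (log2 fold change 0.74 ± 0.28, SE, edgeR adjusted p = 0.0381). That call was lost with DESeq2 (adjusted p = 0.0612), with no filter on low counts (0.0624) and in 7 of the 8 fits without 1 library, over a range of 0.0244 to 0.131, and its 20 chromosomal neighbours had a median log2 fold change of 0.28.

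Among the other class A orphans GPR176 stood out. GPR176 (ENSG00000166073.10, chromosome 15, 39799008 to 39920936, minus strand), a Gz-coupled receptor of the circadian clock in the brain, had 20.7, 21.5, 20.9 and 20.3 CPM in the empty-vector libraries and 5.26, 6.20, 5.10 and 4.87 CPM in the ADRA2A libraries. The level was 3.89-fold lower, with a narrow spread in both groups (log2 fold change -1.96 ± 0.09, SE, edgeR adjusted p = 2.31e-12). GPR19 fell from 5.14 ± 0.725 to 3.12 ± 0.874 CPM (log2 fold change -0.71 ± 0.19, SE, edgeR adjusted p = 0.00474), with ADRA2A replicate 3 at 4.41 CPM above empty-vector replicate 2 at 4.28 CPM. GPR160 rose from 30.4 ± 0.678 to 40.2 ± 1.53 CPM, a log2 fold change of 0.41 (edgeR adjusted p = 4.99e-06). GPR37, a receptor for prosaposin, rose from 18.4 ± 2.23 to 24.1 ± 1.82 CPM (log2 fold change 0.39, edgeR adjusted p = 9.81e-04).

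Both expressed class C receptors with GPR symbols passed with a higher level, where 21.6% of all genes tested did. The call of GPR179 did not hold in every setting. GPR158, an RGS7-binding receptor of neurons, had 6.56, 6.18, 6.16 and 7.20 CPM in the empty-vector and 10.0, 9.30, 9.62 and 10.2 CPM in the ADRA2A libraries, 1.5-fold higher without overlap (log2 fold change 0.59 ± 0.11, SE, edgeR adjusted p = 1.53e-04). GPR179, known from retinal bipolar cells, went from 15.1 ± 0.560 to 17.6 ± 0.187 CPM (log2 fold change 0.21 ± 0.07, SE, edgeR adjusted p = 0.0264). DESeq2 did not make this call, nor did the fits with no filter on low counts (adjusted p = 0.0692), without empty-vector replicate 2 or without ADRA2A replicate 4 (range over the alternatives 0.0267 to 0.0692), and its neighbours had a median log2 fold change of 0.17. Of the 6 proteins with GPR names that lie outside the classical receptor families, all were expressed and only GPR107 passed. That is 16.7%, beside 42.7% of all genes tested. GPR107, a Golgi protein of membrane traffic, rose from 83.3 ± 2.66 to 99.6 ± 6.97 CPM (log2 fold change 0.26, edgeR adjusted p = 2.66e-04). GPR108, GPR137, GPR143, GPR155 and GPR180 had log2 fold changes between -0.14 and 0.48 and did not pass, although GPR180 did with upper quartile scaling (adjusted p = 0.0469).

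**Figure D4:**
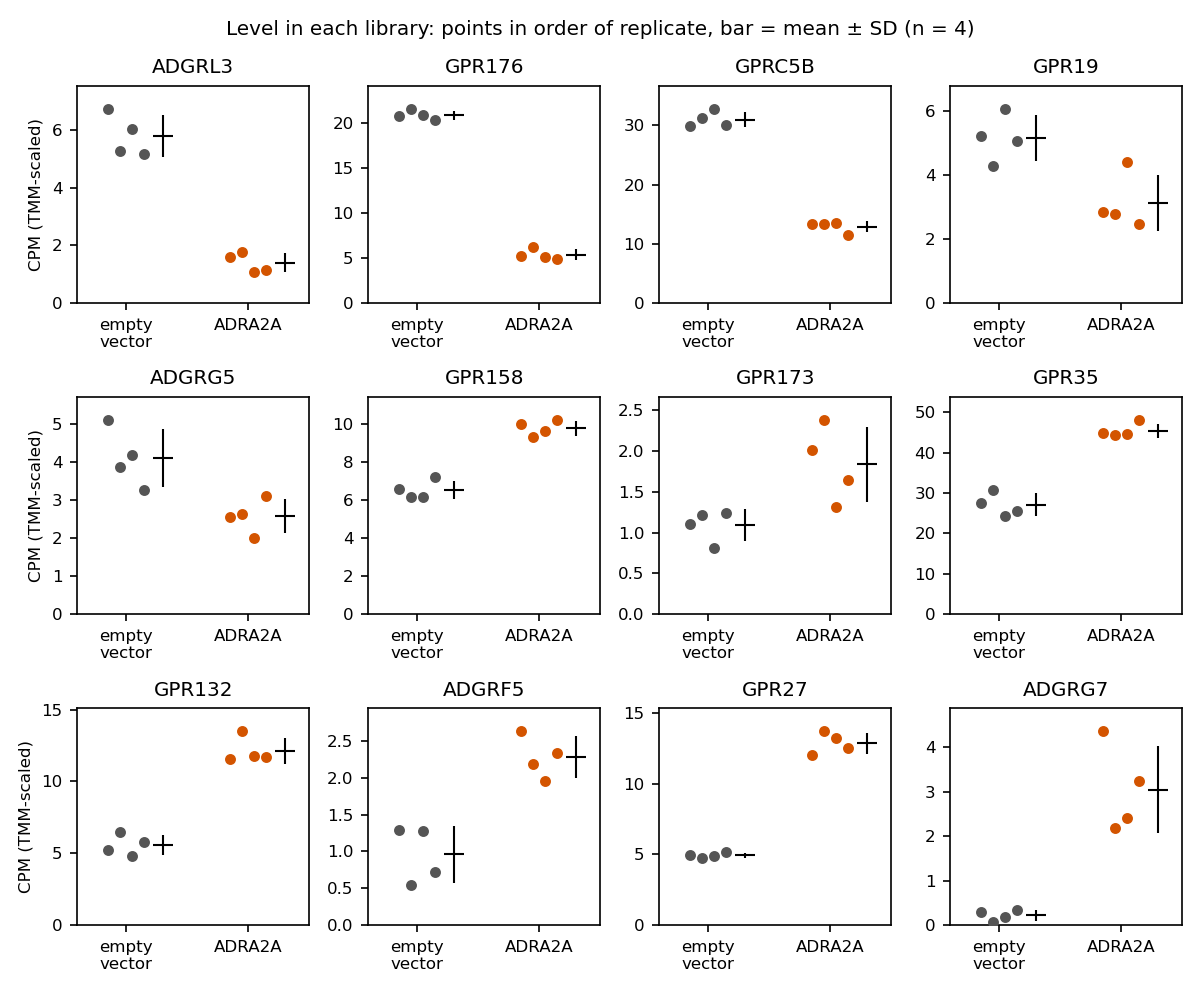
Level in CPM (y axes, from 0) of the 12 receptor genes that passed and differed by 0.5 or more on the log2 scale, with 1 point per library in order of replicate number and the mean ± SD of 4 libraries beside them. GPR19 is the 1 gene of the 12 in which the groups overlap.

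The start regions of 4 strongly changed genes, 2 that fell and 2 that rose, are shown from RefSeq (GRCh38.p14) so that their base composition and motifs can be seen beside the changes above. RefSeq start windows of 250 bases before to 50 after a start were found for 75 of the 107 genes (104 starts). Both strands were searched for the cAMP response element TGACGTCA, its core TGACG, which the full element contains, the AP-1 site TGANTCA and the GC box GGGCGG. The first listed start is given for each gene, 5′ to 3′ on the gene's strand, with matches in capitals. The windows are chr4:61200076-61200375 (plus) for ADGRL3, chr15:39920217-39920516 (minus) for GPR176, chr3:100609351-100609650 (plus) for ADGRG7 and chr14:105065381-105065680 (minus) for GPR132.
ADGRL3: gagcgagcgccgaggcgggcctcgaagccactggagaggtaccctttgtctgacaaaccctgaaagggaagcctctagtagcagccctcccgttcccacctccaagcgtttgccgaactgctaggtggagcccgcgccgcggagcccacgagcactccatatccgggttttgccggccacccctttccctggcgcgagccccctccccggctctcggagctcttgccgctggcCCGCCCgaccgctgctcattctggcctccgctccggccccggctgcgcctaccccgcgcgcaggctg
GPR176: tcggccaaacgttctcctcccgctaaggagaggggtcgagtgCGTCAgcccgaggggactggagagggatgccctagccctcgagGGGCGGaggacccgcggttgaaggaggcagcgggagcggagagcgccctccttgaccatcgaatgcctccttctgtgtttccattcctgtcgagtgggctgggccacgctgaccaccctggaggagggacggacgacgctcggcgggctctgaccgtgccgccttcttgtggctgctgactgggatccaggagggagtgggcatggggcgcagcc
ADGRG7: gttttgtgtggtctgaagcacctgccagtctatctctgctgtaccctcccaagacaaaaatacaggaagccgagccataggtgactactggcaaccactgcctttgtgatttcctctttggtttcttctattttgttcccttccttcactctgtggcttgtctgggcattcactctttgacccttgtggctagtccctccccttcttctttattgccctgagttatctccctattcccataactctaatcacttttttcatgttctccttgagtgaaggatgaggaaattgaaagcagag
GPR132: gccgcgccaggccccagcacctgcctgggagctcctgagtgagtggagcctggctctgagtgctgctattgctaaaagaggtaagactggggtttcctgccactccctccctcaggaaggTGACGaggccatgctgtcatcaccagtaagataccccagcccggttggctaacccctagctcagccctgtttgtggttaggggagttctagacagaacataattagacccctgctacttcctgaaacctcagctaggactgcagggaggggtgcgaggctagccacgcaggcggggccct

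In the ADGRL3 window the capitals mark a GC box on the opposite strand. GPR176 held a core element, also on the opposite strand, and a GC box, GPR132 held a core element, and ADGRG7 held none of the 4 motifs. The counts below take in every start window of a gene. In windows not shown here, ADGRL3 held a core element and GPR176 an AP-1 site. G and C made up 69.7% of the ADGRL3 window, 67.3% of the GPR176, 59.7% of the GPR132 and 45.7% of the ADGRG7 window. A core element was in 4 of 14 start windows of genes that rose and in 3 of 9 of genes that fell, against 31.3% of the windows of all genes tested. The full element was in none of those 23 windows, against 2.61% of the windows of all genes tested. The AP-1 site was in 2 of the 9 and in none of the 14 (5.4% of all tested), and the GC box in 5 of the 9 and 5 of the 14 (65.0%). These windows belong to 16 of the 24 genes that passed, and the other 8 were not analysed here. These are matches of letters, not sites of binding.

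Changes of the receptor genes were compared with those of their chromosomal neighbours. Of the 24 genes that passed, 17 had the same sign as the median of their 20 nearest tested genes, but that median reached an absolute log2 fold change of 0.2 for 2 genes, among them GPR173, 17 of whose 20 neighbours were higher. GPR19 and GPRC5A lie close together on chromosome 12 (from 12660890 and from 12891559), both fell, and their neighbours had medians of -0.18 and -0.14. Overlapping tested genes were found for 5 of the 24. IQCK over GPRC5B and CAPN10 over GPR35 did not pass, while CDKN1B over GPR19 fell by 0.18 on the log2 scale and EIF4E3 rose, as given above.

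The partners of adhesion receptors were described from a list of 26 genes, of which 15 were tested, 7 fell and 2 rose (median log2 fold change -0.05). That is 60.0% of those tested, beside 42.7% of all genes. FLRT2 and TENM3, ligands of latrophilins, fell with ADGRL3, FLRT2 from 4.17 ± 0.992 to 1.37 ± 0.375 CPM (log2 fold change -1.61) and TENM3 by 0.73 on the log2 scale. FLRT3 did not pass (0.27). The type IV collagen genes COL4A1 and COL4A2, whose product binds ADGRG6, fell from 237 ± 6.28 to 138 ± 6.88 CPM and from 412 ± 5.39 to 276 ± 7.11 CPM (log2 fold changes -0.78 and -0.58), whereas ADGRG6 rose. CD55, the ligand of ADGRE5, rose with it, from 59.0 ± 10.6 to 96.3 ± 6.02 CPM (log2 fold change 0.71, edgeR adjusted p = 9.97e-07). TGM2, a partner of ADGRG1, rose from 3662 ± 67.9 to 3928 ± 87.1 CPM (log2 fold change 0.10), while COL3A1 was at or near 0. WNT7A and WNT7B fell by 0.47 and 0.35 on the log2 scale, with their co-receptor gene ADGRA2 under the filter.

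Ligands and ligand enzymes of the GPR receptors gave 8 genes, of which 4 were tested, 2 rose and none fell, a share of 50% beside 42.7% of all genes. PSAP, the source of prosaposin, rose from 672 ± 22.1 to 797 ± 6.10 CPM (log2 fold change 0.25, edgeR adjusted p = 1.95e-06), in the same direction as GPR37. CYP27A1, an oxysterol enzyme, rose from 3.44 ± 0.515 to 7.01 ± 1.58 CPM (log2 fold change 1.01), while GPR183, the oxysterol receptor, had at most 3 counts in a library. Of 13 arrestins, receptor kinases and receptor-modifying genes 11 were tested, 4 rose and 2 fell, a share of 54.5% beside the same 42.7%. RTP4, a chaperone of receptor transport, rose from 14.5 ± 2.30 to 27.7 ± 0.574 CPM (log2 fold change 0.94). RAMP1, which pairs with the calcitonin receptor-like receptor, rose from 28.9 ± 2.71 to 46.1 ± 2.91 CPM (0.67). ARRB1 and ARRB2, the beta-arrestins, rose by 0.26 and 0.23 on the log2 scale, and GRK2 fell by 0.12.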

How the data were processed

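Bulk RNA sequencing of 8 CFPAC-1 samples was analysed from 1 table of RSEM estimated counts per gene, which the authors deposited unscaled. Per the submitters' processing notes cutadapt, STAR, RSEM and DESeq2 were used with hg38, and roles and versions, annotation release, read length and strand use are not given in the sources used here. Columns were assigned by the name in brackets in each title. Counts were rounded, filtered with edgeR's filterByExpr (14785 of 58870 genes kept), scaled by TMM and tested with edgeR 4.0.16 (quasi-likelihood, group as the single term, R 4.3.3), with Benjamini-Hochberg adjustment over all genes tested and a threshold of 0.05. The test was checked on simulated data. CPM are counts over TMM-scaled library sizes of the tested genes. A standard error is the absolute log2 fold change over the square root of F. Positions and transcript lengths came from GENCODE 44 (GRCh38), which held all 107 members. Depth was at least 14427040 counts per library.

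Members and lists were chosen with earlier results of these data known. Genes named were the members that passed and differed by 0.5 or more on the log2 scale, the 8 with the highest mean TPM, and up to 3 per partner list by smallest p. Other named genes were chosen after their values were seen, or to complete a family. Results of 2 tested members, which stay in all counts, are not reported here. Alternatives were DESeq2 1.42.0, limma 3.58.1 voom, RLE or upper quartile factors, no filter, a mean of at least 50 counts, a replicate block, and fits without 1 library each.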

Additional observations from a re-analysis of the deposited data

Results flagged for a closer look

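In 42 groups of 4 libraries (20 named receptor genes and the summed level of all members, in each group), 3 held a library whose gap to the next exceeded Dixon's critical share of the group's range, 7.14% where chance gives about 1 in 20. GPR132 in ADRA2A replicate 2 was at 13.5 CPM, with the other ADRA2A libraries between 11.6 and 11.8 CPM. GPR35 in ADRA2A replicate 4 was at 48.0 CPM, with the others between 44.3 and 44.8 CPM. GPRC5B in ADRA2A replicate 4 was at 11.5 CPM, with the others between 13.3 and 13.5 CPM. In each case the library lay on the far side of the group from the empty-vector libraries.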

How the results depend on the processing

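The number of receptor genes that passed was 24 and lay between 21 (a mean of at least 50 counts) and 26 (upper quartile factors) under the 7 other settings, and between 22 and 25 when 1 library was left out, with 0 changes of sign among shared calls. Of 297 values of the 20 receptor genes chosen by rule under these settings 288 kept direction and side of the threshold and 9, all of GPR173, lost the call. Outside those 20, GPR179 lost its call in 4 settings, and ADGRE2, ADGRF4, ADGRL1, GPR135, GPR161 and GPR180 passed in 1 to 3 settings each. Counting a gene as expressed from 1 count in any library, a setting chosen after seeing the data, gave 72 genes in place of 42. With 5 in place of 10 neighbours on each side, 2 in place of 1 of the 24 genes had neighbours shifted by at least 0.2 in the gene's own direction. Without the filter GPR141 also passed (log2 fold change -1.87, adjusted p = 0.0162, at most 17 counts in a library). Same-numbered samples did not deviate together (correlations of -0.02, -0.04, 0.07 and -0.02), so the numbers were not taken as pairs, and with the replicate block 24 receptor genes passed. The partner lists, for which these settings were chosen after seeing the data, gave 17 genes that passed, and between 16 and 19 elsewhere. The 30 detected but untested genes had at most 18 counts in a library and have no result under the filter used.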
